A study of Mus musculus with 50 samples.

Results

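The ubiquitin-specific proteases (USPs) are the largest family of deubiquitinases, and their transcripts were measured here in single mouse oocytes with and without Zfp36l2. The members are all rows of the count table whose symbol is Usp followed by a digit, leaving out the Usp17l genes (5 rows) and Usp9y. This gave 50 of 16614 genes. Usp6nl enters by its name but encodes a GTPase-activating protein for Rab GTPases and not a deubiquitinase. Of the 50 members, 49 had enough counts to be tested. Usp18 did not.

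The samples were 26 single oocytes from 4 Zfp36l2 floxed mice (5, 7, 7 and 7 oocytes from mice 1 to 4) and 24 from 4 conditional knockout mice, labelled cKO-Zfp36l2 (1, 7, 8 and 8 oocytes). All were 5-week-old females given 10 IU of PMSG, a gonadotropin that makes follicles grow, and their ovaries were taken 46 hours later. Germinal vesicle oocytes enclosed in cumulus cells were collected in medium with 5 µM milrinone, which keeps them in meiotic arrest, then stripped of granulosa cells and of the zona pellucida. Floxed mice carry the allele that Cre can delete. The labels do not name the Cre driver of the knockout. ZFP36L2 is an RNA-binding protein that recognises AU-rich elements in 3′ untranslated regions (UTRs) and promotes decay of the mRNA.

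Ubiquitin is attached to proteins by a cascade of E1, E2 and E3 enzymes, and deubiquitinases remove or shorten it. USPs are cysteine proteases that share a catalytic fold and differ in the domains around it, which place them at chromatin, endosomes, mitochondria, the proteasome or the spliceosome. A germinal vesicle oocyte makes little or no new RNA at the end of growth and stores mRNA for maturation and the early embryo. Whether the oocytes of either genotype had stopped making RNA was not tested.

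Depth was 1746007 to 6233840 counts per oocyte and 4332108 to 44498770 counts per mouse sum, the lowest being knockout mouse 1, which is a single oocyte. Zfp36l2 itself was low in both genotypes, at 1.96 to 4.17 CPM (read counts scaled to the total count of the library) in floxed and 1.06 to 2.77 in knockout mice, and the difference, -0.78 ± 0.43 on the log2 scale (SE), did not pass the test (edgeR adjusted p = 0.208), so it does not check the labels. All 12 oocyte markers were present, with a summed level of 5089 to 6192 CPM in floxed and 5069 to 5673 CPM in knockout mice. Of 14 cumulus and granulosa cell markers, 12 were in the table and none was at 0 in all mice; they summed to 158 to 241 CPM in floxed and 157 to 304 CPM in knockout mice, with Cyp19a1 as the highest single gene. Of 6 blood and vessel markers, 2 were in the table, and they summed to 96.3 to 186 CPM in floxed and 22.3 to 41.8 CPM in knockout mice, most of it Pecam1. The part of these markers in the results below was not tested.

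Of the members called in the test described below, Usp12, Usp46 and Usp15 carry the AU-rich heptamer UAUUUAU, the core of the element bound by the ZFP36 family, in their annotated 3′ UTR, and their sites are shown because they stand in a gene that was higher and in genes that were lower in the knockout. Capitals mark the heptamer, the sites run 5′ to 3′ on the transcript strand, and the sequence is from mm10 with GENCODE M21 annotation. Usp12 (higher) has 2 sites on the minus strand of chromosome 5, at chr5:146737007-146737029 and chr5:146735616-146735638.
Usp12 site 1: uuuuuccuUAUUUAUuuuacuua
Usp12 site 2: uuacuuuuUAUUUAUagugcaga
Usp46 (lower) has 4 sites on the minus strand of the same chromosome, at chr5:74000935-74000957, chr5:74000761-74000783, chr5:74000275-74000297 and chr5:74000233-74000255.
Usp46 site 1: auucagucUAUUUAUggaggcac
Usp46 site 2: uuugugugUAUUUAUuagagcau
Usp46 site 3: gcaaugcaUAUUUAUaaauauuu
Usp46 site 4: augaagcaUAUUUAUuaaucacu
Usp15 (lower) has 3 sites on the minus strand of chromosome 10, at chr10:123112065-123112087, chr10:123112061-123112083, which overlaps the first, and chr10:123111758-123111780.
Usp15 site 1: ugguaaauUAUUUAUuuauguua
Usp15 site 2: aaauuauuUAUUUAUguuaacau
Usp15 site 3: ugcauguuUAUUUAUacagauuu

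Over the family, the heptamer was found in 21 of the 49 members with a 3′ UTR of at least 20 bases (42.9%), against 3825 of 13791 tested genes (27.7%). The members' 3′ UTRs were longer, with a median of 1372 bases against 1003. Within the members' middle range of UTR length, 738 to 2870 bases, 9 of 25 members held it, against 32.9% of 6176 tested genes. Of the 20 tested members with the heptamer, 1 was higher and 2 were lower in the knockout; of the 28 searched and tested without it, 5 were higher and 3 were lower. Over all tested genes, 651 of 3825 with the heptamer were higher (17.0%) and 454 lower (11.9%), and 1383 of 9966 without it were higher (13.9%) and 1360 lower (13.6%). A match is a description of the letters and not a binding site.

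The summed level of the family overlapped between the genotypes through floxed mouse 1 alone. The other floxed mice lay above every knockout mouse. Summed over the 50 members, their level was 7500, 8561, 8673 and 8678 CPM in floxed mice 1 to 4 (8353 ± 571, SD, n = 4) and 7879, 8171, 7980 and 8216 CPM in knockout mice (8062 ± 159, SD, n = 4), and the groups overlapped. Per kilobase of transcript, the median member was at 23.5 CPM per kilobase against 9.25 for all tested genes, and 31 of the 50 lay above the latter. Oocytes held transcripts of nearly the whole family. A floxed oocyte had at least 1 count of 45 to 49 members (median 48) and a knockout oocyte of 47 to 50 (median 49), and 44 members were seen in every oocyte.

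Usp9x, an X-linked deubiquitinase that acts on SMAD4 and on adhesion proteins, had the highest CPM of any gene in the table. It stood at 1025, 1357, 1330 and 1400 CPM in floxed mice and 1111, 1223, 1135 and 1200 CPM in knockout mice. Floxed mouse 1 was the lowest of the 8, and the groups overlapped. Among floxed oocytes the log2 count of Usp9x rose with the log2 total count with a slope of 1.14; over the 50 members this slope had a median of 1.31 and ran from -0.02 (Usp18) to 2.35 (Usp40), with 0.11 for the abundant Usp19. Its transcript is long (11887 bases), and per kilobase it ranked 782 among all genes and 4 among the members. It was not called (log2 -0.17 ± 0.11, SE; edgeR adjusted p = 0.264), but it was called lower without floxed mouse 1 (log2 -0.31; adjusted p = 0.0081). Usp9x took 15.3% of the members' counts in floxed and 14.5% in knockout oocytes.

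Ordered by CPM per kilobase, the head of the family was Usp7, which acts on p53, MDM2 and chromatin proteins. Usp7 was at 149 ± 14.5 CPM per kilobase in floxed and 131 ± 4.15 in knockout mice (SD, n = 4 each), rank 372 among all genes. Usp28, Usp46, Usp9x and Usp16 followed, with 94.8 ± 6.14, 115 ± 8.34, 108 ± 14.4 and 84.2 ± 9.01 CPM per kilobase in floxed mice. The order is by the mean over 8 mice, and in floxed mice alone Usp46 and Usp9x stood above Usp28. At the foot stood Usp44, Usp25 and Usp18, with 0.619 ± 0.225, 0.195 ± 0.0767 and 0.106 ± 0.212 CPM per kilobase in floxed mice. Usp18, which removes the ubiquitin-like modifier ISG15, was at 0 in 23 of 26 floxed and 18 of 24 knockout oocytes. A count of 0 there shows only that it was not detectable at this depth.

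**Figure D1:**
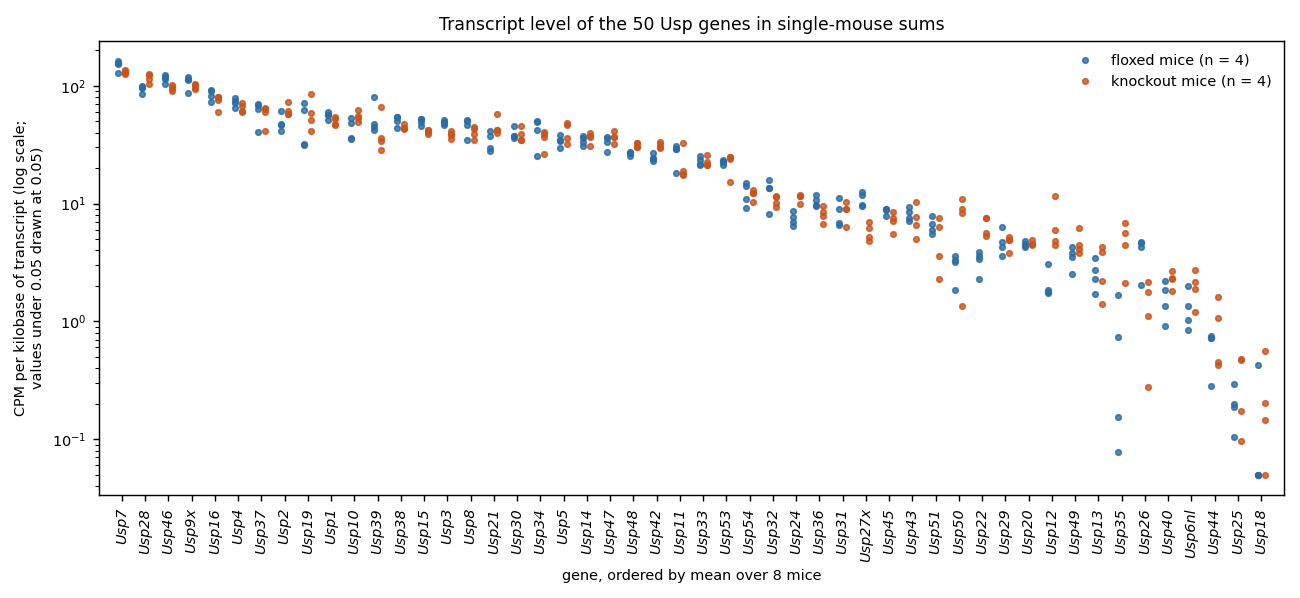
CPM per kilobase of transcript (log axis) of the 50 Usp genes in the 4 floxed (blue) and 4 knockout (orange) mice, 1 point per mouse, ordered by the mean over 8 mice. Usp7 leads the family and Usp18 is last; most genes have overlapping groups, while Usp12 and Usp35 stand apart.

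The oocytes of a mouse were alike for most abundant members and unlike for some scarce ones. Over the 45 members with a mean of at least 10 CPM, the spread between sister oocytes, taken as the SD of log2(CPM + 1) within a mouse (median over the 7 mice with several oocytes), had a median of 0.25, against 0.28 over 9704 genes of that level. It was lowest for Usp7 and Usp16, at 0.08 each. Usp19 was an exception among the abundant members, with a spread of 0.42 at a mean of 259 CPM. Usp26 had the highest spread, 1.08, and Usp13, an Usp5 paralogue, came near it with 0.97. Both are scarce genes. Usp12, Usp20 and Usp22, with mean levels of 19, 23.2 and 21.7 CPM near that of Usp13 (20.9 CPM), had spreads of 0.42, 0.56 and 0.63. The part of counting error in these spreads was not tested.

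In the knockout 6 members were higher and 5 were lower, and 38 of the 49 tested were not called. The higher ones were Usp12, Usp22, Usp24, Usp28, Usp35 and Usp42, and the lower ones Usp3, Usp15, Usp26, Usp27x and Usp46. The 11 called members are 22.4% of the 49, and the background is 27.6% of the 15029 genes tested (14.4% higher and 13.2% lower), so the family's share is near that of all genes. The counts of the role lists and of the related gene lists below stand against these same shares. The CPM of the groups did not overlap for 11 members (7 above, 4 below; 22.4%), and for 31.0% of all tested genes. Changes were small for most: the median absolute log2 fold change was 0.30, against 0.44 over all tested genes, and 40 of 49 lay under 0.5. These medians were not matched for level, and the median member was more abundant than the median tested gene. The median signed log2 fold change was -0.05 for members and -0.01 for all. In 24 members the 95% interval of the fold change lay within 1.5-fold in either direction, and 19 of these were not called.

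The count of lower members depended on the mice numbered 1. Without floxed mouse 1 it was 14 and without knockout mouse 1 it was 10, with 5 and 7 members higher. Leaving out mouse 1 of both genotypes gave 9 higher and 18 lower. In that fit the median log2 fold change was -0.11 for members and -0.021 for all genes. The share of all genes called in these fits is not given here, so the counts alone do not show a shift of the family. Leaving out floxed mouse 2 or floxed mouse 4 gave 3 lower, and leaving out floxed mouse 4, knockout mouse 2 or knockout mouse 3 gave 3, 2 and 3 higher. Usp3, Usp12, Usp15, Usp24 and Usp27x were called in the same direction in each of the 16 alternative analyses run. All 11 called members had the same sign in the pair of mice numbered 1. For members whose groups did not overlap, that sign was fixed in advance. Both mice were also in the fit, so the shared sign is no check of the calls.

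**Figure D2:**
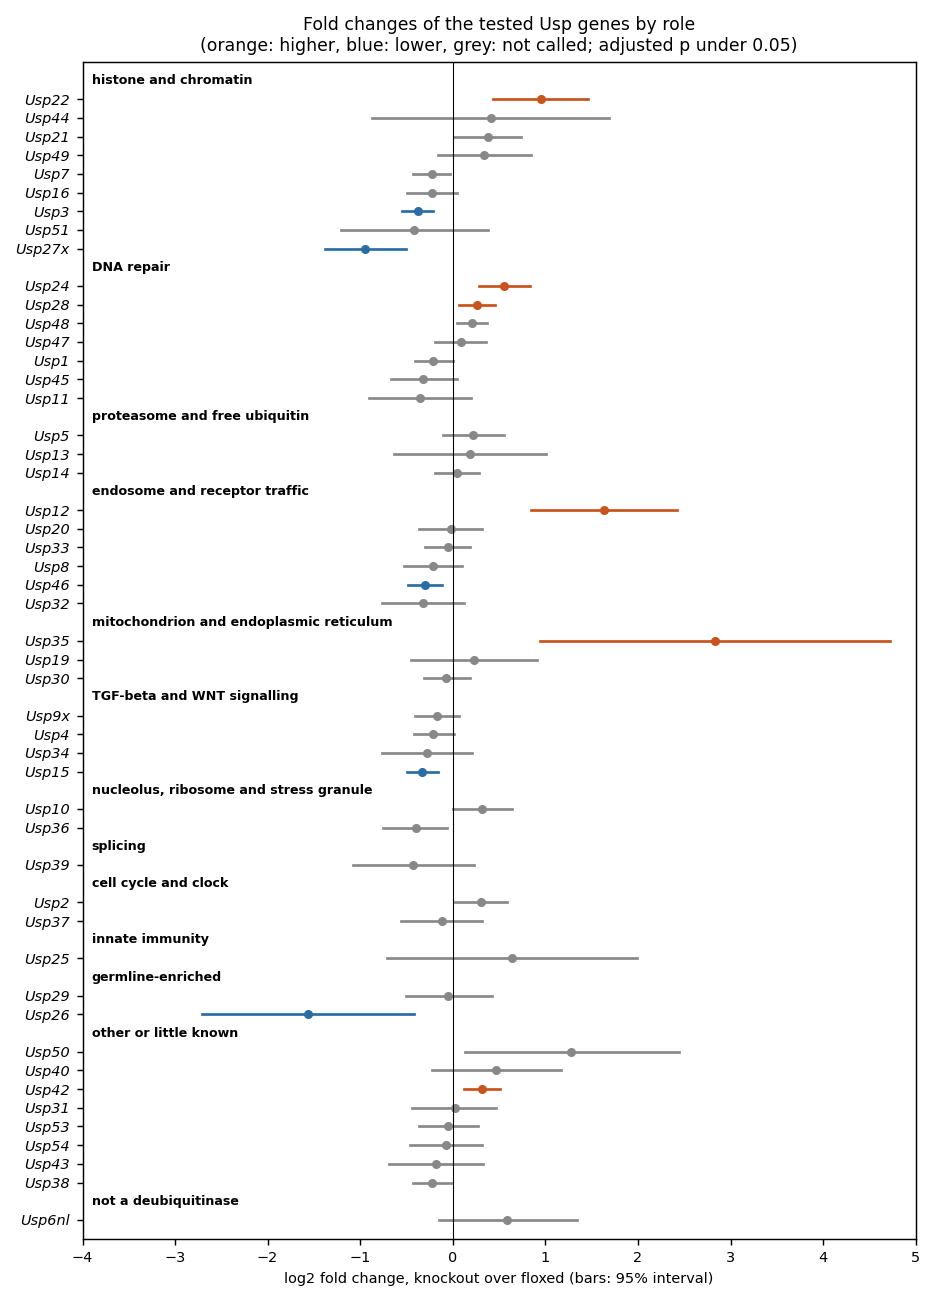
Log2 fold change of knockout over floxed for the 49 tested Usp genes, grouped by role, with 95% intervals from edgeR on 4 against 4 mice. Orange marks the 6 called higher, blue the 5 called lower and grey the 38 not called; Usp35 has the largest fold and the widest interval.

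Among the 9 members that act on histones and chromatin, 1 was higher and 2 were lower. Usp3, which removes ubiquitin from histone H2A (chr9:66514637-66593142, minus strand), was at 260, 285, 278 and 269 CPM in floxed and 229, 213, 199 and 220 CPM in knockout mice. Every knockout mouse lay below every floxed mouse, and 15 of 24 knockout oocytes lay below the lowest floxed oocyte. It fell by 1.30-fold (log2 -0.38 ± 0.08, SE; edgeR adjusted p = 0.00649).

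Usp22 is the catalytic subunit of the deubiquitinase module of the SAGA transcription complex, and Usp27x and Usp51 are its paralogues, which can take its place on the shared adaptors. Usp22 (chr11:61151785-61175055, minus strand) was at 17.1, 10.1, 15.1 and 15.9 CPM in floxed and 33.7, 33.2, 23.4 and 24.9 CPM in knockout mice. All knockout mice were above all floxed mice, and it rose 1.93-fold (log2 0.95 ± 0.23, SE; edgeR adjusted p = 0.0152). The call was lost without knockout mouse 2 (adjusted p = 0.0547). Among floxed oocytes the log2 count of Usp22 rose with the log2 total count with a slope of 2.12. This slope was 1.64 for Usp24, 1.68 for Usp26 and 1.87 for Usp27x. In the other called members it ran from 0.28 (Usp35) to 1.28 (Usp42). With mouse sums thinned to equal depth Usp22 was still called (log2 0.88, edgeR adjusted p = 0.0131), but that does not equalise single oocytes. The part of single-oocyte depth in the differences of these members was not tested. X-linked Usp27x (chrX:7371276-7375830, minus strand) went the other way, from 30.6, 31.5, 40.6 and 38.3 CPM in floxed to 16.9, 22.5, 20 and 15.5 CPM in knockout mice. These groups did not overlap either, and it was 1.93-fold lower (log2 -0.95 ± 0.19, SE; adjusted p = 0.00686). Usp51 was at 12.2 to 17.1 CPM in floxed and 5.08 to 16.6 CPM in knockout mice and was not called (log2 -0.42 ± 0.35, SE). Per kilobase, Usp27x was above Usp22 in floxed mice (10.9 ± 1.52 against 3.28 ± 0.693, SD, n = 4), while in knockout mice they stood at 5.78 ± 0.965 and 6.49 ± 1.22. The sum of the 3 paralogues was 20.6 ± 2.71 and 17.2 ± 3.19 CPM per kilobase.

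Of the adaptors listed for that module, 1 was called. Atxn7l1, a relative of the SAGA subunit ATXN7, was 3.18-fold lower (10.7 ± 1.48 CPM in floxed and 3.46 ± 0.752 in knockout mice, SD, n = 4 each; edgeR adjusted p = 0.00278). Atxn7, Atxn7l2 and Eny2 were not called. Atxn7l3, the adaptor shared by the 3 proteases, was near the detection limit in these oocytes, at 0.213 ± 0.169 and 1.15 ± 0.805 CPM, and was not called.

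Usp12 and Usp46 are close paralogues that are activated by the WD-repeat proteins WDR48 and WDR20, and they also moved in opposite directions. Usp12 (chr5:146734809-146795006, minus strand) was at 13.3, 7.47, 8.06 and 7.59 CPM in floxed and 49.6, 26.1, 19.3 and 20.7 CPM in knockout mice. Every knockout mouse was above every floxed mouse, 13 of 24 knockout oocytes were above the highest floxed oocyte, and all 24 were above the floxed median. It rose 3.09-fold (log2 1.63 ± 0.35, SE; edgeR adjusted p = 0.00894). Without knockout mouse 1, the single oocyte at 49.6 CPM, the call was kept with a smaller log2 fold change of 1.19. Usp46 (chr5:73998453-74068431, minus strand) was at 471, 558, 522 and 543 CPM in floxed and 410, 443, 431 and 461 CPM in knockout mice. The groups did not overlap, and it was 1.23-fold lower (log2 -0.30 ± 0.08, SE; adjusted p = 0.0205). That call was lost without floxed mouse 2, without floxed mouse 4 and with mouse sums thinned to equal depth (adjusted p up to 0.0645).

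Usp46 stayed the major form. Per kilobase the pair went from 2.11 ± 0.651 for Usp12 and 115 ± 8.34 for Usp46 in floxed mice to 6.68 ± 3.26 and 95.7 ± 4.68 in knockout mice, and their sum from 117 ± 7.73 to 102 ± 2.92 (SD, n = 4). Their transcripts share no run of 50 bases. The common activator Wdr48 was 1.25-fold lower (126 ± 8.46 CPM in floxed and 103 ± 9.01 in knockout mice; edgeR adjusted p = 0.0419), and Wdr20 was not called. Of 13 sets of paralogues, which hold 29 of the members, 2 had a called member in each direction, these and Usp22 with Usp27x. The sets were chosen after the values were seen. How often sets of other genes split in this way was not tested. At most 4.46% of the 50-base words of a called member occur in another gene, a share reached by Usp46, which overlaps the antisense gene Usp46os2.

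**Figure D3:**
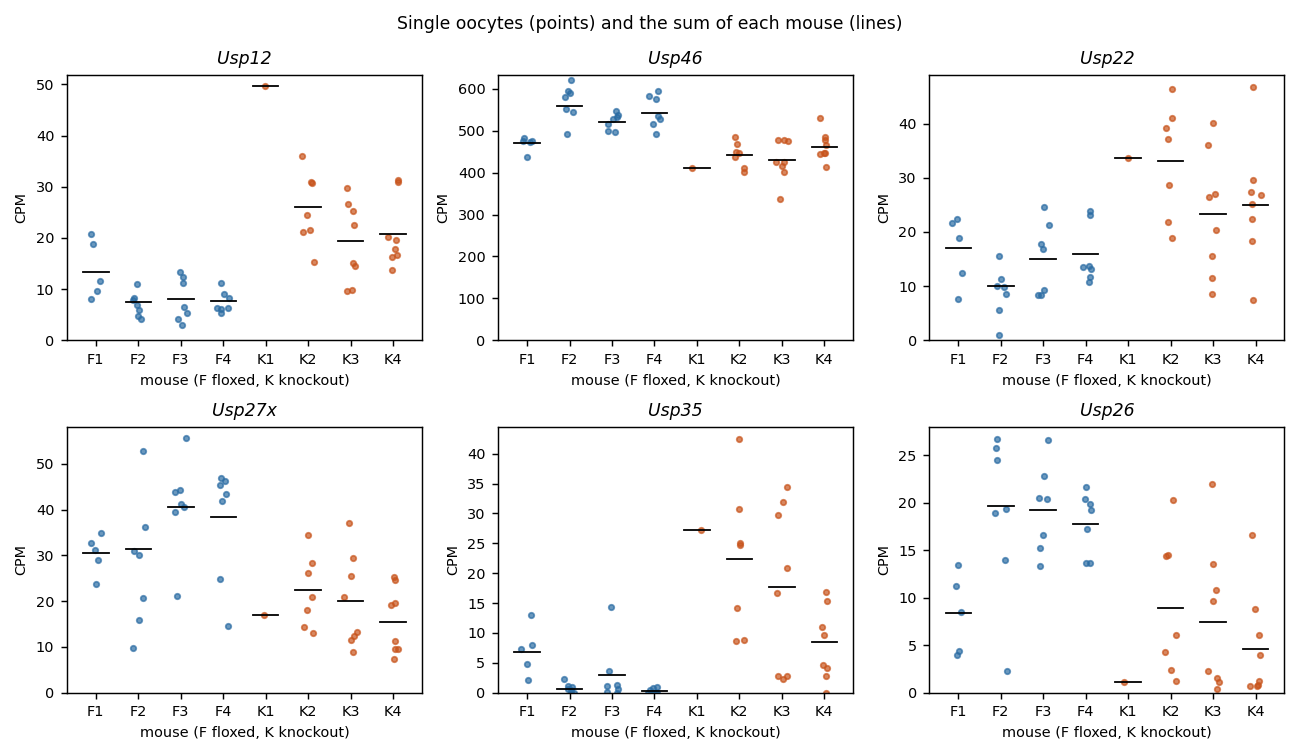
CPM of 6 called Usp genes in single oocytes (points) and in the sum of each mouse (lines), floxed mice F1 to F4 in blue and knockout mice K1 to K4 in orange; K1 is a single oocyte. Usp12, Usp22 and Usp35 are higher and Usp46, Usp27x and Usp26 lower in the knockout, with single oocytes of both groups overlapping for all 6.

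The other 4 members of endosome and receptor traffic were not called. Usp8, which works with the ESCRT machinery on internalised receptors, had log2 -0.21 ± 0.14 (SE). Usp20 was level, at 21.9 to 24.4 CPM in floxed and 22.6 to 24.7 CPM in knockout mice, with a 95% interval of -0.37 to 0.32 on the log2 scale. Stam and Stam2, the endosomal partners that bind Usp8, were 1.54-fold and 1.61-fold higher (edgeR adjusted p = 0.0192 and 0.00329).

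Of the 7 members linked to DNA repair, 2 were higher and 0 were lower (28.6% called, near the 27.6% of all genes). Usp24 (chr4:106316213-106441322, plus strand) was at 73.5, 68.0, 92.0 and 81.5 CPM in floxed and 122, 125, 122 and 105 CPM in knockout mice. All knockout mice and 17 of 24 knockout oocytes lay above the highest floxed value of their kind, and it rose 1.47-fold (log2 0.55 ± 0.12, SE; edgeR adjusted p = 0.0102). Usp28, a partner of 53BP1 that also protects MYC (chr9:48985375-49042517, plus strand), was among the most abundant members, at 354, 405, 409 and 398 CPM in floxed and 429, 472, 507 and 525 CPM in knockout mice. Its groups did not overlap and 17 of 24 knockout oocytes were above the highest floxed oocyte, but the change was small (log2 0.26 ± 0.09, SE; adjusted p = 0.0463). It was called in 7 of 16 alternatives and lost its call without any 1 of the 4 floxed mice, without knockout mouse 2, 3 or 4, with upper-quartile scaling and with no filter on low counts (adjusted p up to 0.213). Usp48 was at 144 to 157 CPM in floxed and 174 to 187 CPM in knockout mice, which do not overlap, and missed the threshold (log2 0.21 ± 0.07, SE; adjusted p = 0.0653).

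Of 3 members of the mitochondrion and endoplasmic reticulum, 1 was higher. Usp35, which has been placed at mitochondria (chr7:97309380-97332020, minus strand), had the largest fold of the family. It was at 6.71, 0.612, 2.92 and 0.31 CPM in floxed and 27.2, 22.3, 17.6 and 8.42 CPM in knockout mice. The groups did not overlap, 7 of 26 floxed oocytes and 1 of 24 knockout oocytes were at 0, and it rose 7.11-fold with a wide error (log2 2.83 ± 0.84, SE; edgeR adjusted p = 0.0335). Its call was lost without floxed mouse 2, 3 or 4 and without knockout mouse 2 or 3 (adjusted p up to 0.0806), and without floxed mouse 1 the log2 fold change was 3.77. Usp30, on the outer mitochondrial membrane, and Usp19, which has a form anchored in the endoplasmic reticulum, were not called. Usp19 spread widely within each genotype, at 340, 298, 150 and 153 CPM in floxed and 404, 248, 198 and 281 CPM in knockout mice, and the groups overlapped.

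In the set tied to TGF-beta and WNT signalling, 1 of 4 members was lower. Usp15, which acts on SMADs and the type I receptor (chr10:123105006-123196995, minus strand), was at 525, 599, 572 and 599 CPM in floxed and 485, 465, 448 and 485 CPM in knockout mice. The groups did not overlap, and it was 1.25-fold lower (log2 -0.33 ± 0.08, SE; edgeR adjusted p = 0.0119). Usp4, its paralogue, and Usp34, which acts on Axin, had log2 fold changes of -0.21 ± 0.10 and -0.28 ± 0.22 (SE) and were not called; both were among the members called lower without floxed mouse 1.

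Usp26 and Usp29 are known for expression in the germline, and the first was lower. X-linked Usp26 (chrX:51753959-51801233, minus strand) was at 8.41, 19.7, 19.2 and 17.8 CPM in floxed and 1.15, 8.88, 7.39 and 4.56 CPM in knockout mice. Floxed mouse 1 lay inside the knockout range, so the groups overlapped. It was 2.96-fold lower (log2 -1.56 ± 0.51, SE; edgeR adjusted p = 0.0475), and 10 of 24 knockout oocytes were below the lowest floxed oocyte. Without floxed mouse 2, 3 or 4 or knockout mouse 3 or 4 the call was lost (adjusted p up to 0.115). Usp29, a paternally expressed imprinted gene, was level (log2 -0.05 ± 0.21, SE), and 33.8% of its 50-base words occur in other genes.

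Grouped after their values were seen, all 5 X-linked members (Usp9x, Usp11, Usp26, Usp27x and Usp51) had a log2 fold change below 0, 2 of them called, with a median of -0.42. Of the 571 X-linked genes tested, 88 were higher and 60 lower, with a median of 0.07.

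Usp42, which has been reported to act on p53 and on histone H2B (chr5:143710325-143732280, minus strand), was the only called gene of the 8 members with other or little known roles. It was at 122, 127, 138 and 118 CPM in floxed and 165, 170, 157 and 152 CPM in knockout mice. No knockout mouse reached down to a floxed one, and it rose 1.24-fold (log2 0.32 ± 0.09, SE; edgeR adjusted p = 0.0243). The call was lost without floxed mouse 1, 2 or 4 and without knockout mouse 2, 3 or 4 (adjusted p up to 0.116).

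The members of the proteasome and free ubiquitin pool were not called: Usp5, which takes apart free ubiquitin chains, Usp13 and Usp14, which sits on the proteasome, had log2 fold changes of 0.22 ± 0.15, 0.18 ± 0.37 and 0.04 ± 0.10 (SE; edgeR, 0 of 3 at an unadjusted p under 0.05 and 0 of 3 by DESeq2). Of Usp14's 50-base words, 45.3% occur in other genes. Usp10, the partner of G3BP at stress granules, and Usp36, a nucleolar protease, had log2 0.32 ± 0.14 and -0.40 ± 0.15 (SE; adjusted p = 0.123 and 0.0768), and G3bp1 was 1.37-fold higher (adjusted p = 0.0297). Usp39, an inactive member of the spliceosome, and Usp2, a cell cycle and clock gene, were not called, with log2 -0.43 ± 0.29 and 0.30 ± 0.13 (SE). Usp2 was called higher without floxed mouse 1 (log2 0.37; adjusted p = 0.0293), and Usp10 without floxed mouse 2 (log2 0.44; adjusted p = 0.0458). Usp36 was called lower without either mouse numbered 1 (adjusted p = 0.0371 without floxed mouse 1 and 0.0172 without knockout mouse 1). Usp25, an innate immunity gene, was at most 2.28 CPM in any mouse.

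The 38 members that were not called had log2 fold changes from -0.43 (Usp39) to 1.28 (Usp50). Usp7 (-0.23 ± 0.09, SE; edgeR adjusted p = 0.0803) and Usp38 (-0.23 ± 0.09, SE; adjusted p = 0.0956) were near the threshold, and Usp7 was called lower without floxed mouse 1 (adjusted p = 0.00433). Usp32, an endosomal member, had log2 -0.32 ± 0.20 (SE), and Usp6nl, the Rab regulator, 0.59 ± 0.33 (SE). Usp1, Usp16, Usp21, Usp31, Usp33, Usp40, Usp43, Usp44, Usp45, Usp47, Usp49, Usp53 and Usp54 lay between -0.32 and 0.47. The value of Usp49 is uncertain, since 52.3% of its 50-base words occur in other genes, most in Gm20517 on the same strand.

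In several members the mice numbered 1 lay apart from mice 2 to 4. Usp37, which acts on cyclin A, was at 201 CPM in floxed mouse 1 and 205 CPM in knockout mouse 1, and at 299 to 348 CPM in the other 6 mice. Usp39 was high in both, at 181 and 149 CPM, against 95.4 to 107 CPM in the other floxed and 64.4 to 80.8 CPM in the other knockout mice. It was called lower without knockout mouse 1 (log2 -0.80; edgeR adjusted p = 0.0251) and without both mice numbered 1 (log2 -0.54; adjusted p = 0.00412). Usp11 and Usp50 ran against the genotype difference of the other mice.

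Usp11, a paralogue of Usp15 linked to repair by homologous recombination, was at 62.4 CPM in floxed mouse 1 and 112 CPM in knockout mouse 1, while mice 2 to 4 had 100 to 107 CPM in floxed and 60.8 to 65.1 CPM in knockout oocytes. Over 8 mice the log2 difference was -0.35 ± 0.25 (SE; edgeR adjusted p = 0.324) and -0.80 (adjusted p = 0.000186) without the mice numbered 1. Usp50 was at 1.85 CPM in knockout mouse 1, below all 4 floxed mice, and at 11.2 to 14.9 CPM in knockout mice 2 to 4. Over 8 mice the log2 difference was 1.28 ± 0.52 (SE; adjusted p = 0.0927) and 1.59 (adjusted p = 0.00236) without the mice numbered 1. Knockout mouse 1 is a single oocyte, and the cause of these values was not tested.

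**Figure D4:**
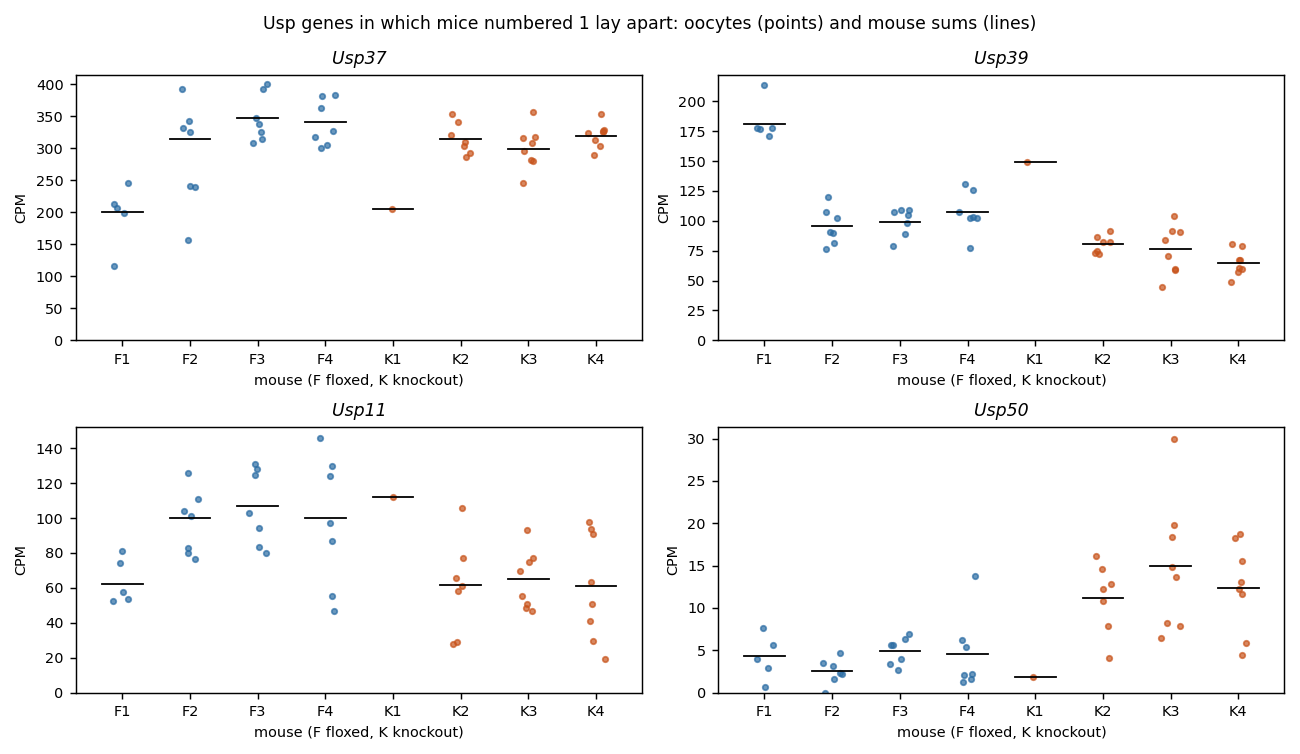
CPM of Usp37, Usp39, Usp11 and Usp50 in single oocytes (points) and mouse sums (lines), with mice as F1 to F4 (floxed) and K1 to K4 (knockout). F1 and K1 lie apart in the same direction for Usp37 and Usp39 and in opposite directions for Usp11, while for Usp50 K1 lies below the floxed mice.

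Among 36 genes of deubiquitinase families or with a USP-like fold outside the USP symbols, 6 were higher (16.7%) and 3 lower (8.3%) in the knockout. The shares of all tested genes were 14.4% and 13.2%. The median log2 fold change of the 36 was -0.05. The higher ones were Bap1 (1.32-fold), which acts on histone H2A, Otud6b (1.33-fold), Otud7b (1.96-fold), Alg13 (1.25-fold), Stambpl1 (65.3-fold), an endosomal relative of STAMBP, and Uspl1 (2.54-fold), a SUMO protease with a USP-like fold. Stambpl1 was at 0.434 to 1.8 CPM in floxed and 54.4 to 98.3 CPM in knockout mice, and 14 of 26 floxed oocytes were at 0. The size of its fold thus rests on a floxed level near the detection limit. Lower were Uchl3 (1.43-fold), Vcpip1 (1.44-fold) and Atxn3 (1.92-fold), the ataxin-3 deubiquitinase. Of 14 partners of USPs, 4 were higher (28.6%) and 2 lower (14.3%), beside the same shares of all genes, the remaining higher one being Dmwd (1.48-fold; edgeR adjusted p = 0.049).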

How the data were processed

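The values are read counts per gene and oocyte as deposited by the authors. STAR and the mm10 build are named, per the submitters' processing notes. Not given in the sources used here were the version of STAR, how reads were counted and what was done with reads that map to several genes. Counts of the oocytes of a mouse were summed, because oocytes of a mouse share their source, which left 4 floxed and 4 knockout mice. CPM are counts scaled to the total count of the mouse or oocyte; CPM per kilobase divides them by a transcript length from the GENCODE M21 annotation of mm10, matched by RefSeq accession for all 50 genes. The test was edgeR's quasi-likelihood test (edgeR 4.0.16, limma 3.58.1, R 4.3.3) with TMM scaling, robust dispersions and filterByExpr at a minimum count of 10, fitted on all genes, and p-values were Benjamini-Hochberg adjusted over the 15029 genes tested. A gene was called at an adjusted p under 0.05. The fit was tested on simulated data. DESeq2 1.42.0 and the other alternatives are in the closing section. The p-values measure the spread between these mice.

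All members are accounted for. Named with values were every called member, the 8 members with the highest mean CPM, up to 3 members per role list with the smallest p, members dropped by the filter, and every called gene of the lists of other deubiquitinases and USP partners. The list of ubiquitin and E1 genes is not reported here. Members named outside that rule (Usp11, Usp20, Usp51 and some others), the X-linked grouping and the paralogue sets were chosen after their values were seen. The members and lists were chosen with earlier results of these data known. The motif UAUUUAU was searched in annotated 3′ untranslated regions of at least 20 bases, on the transcript strand. The library kit does not mark strand, as far as the labels' protocols name it, so reads of overlapping genes on opposite strands cannot be told apart. CPM and TMM are relative and do not show a change in total mRNA per oocyte. Without molecular identifiers, thinning to equal depth addresses the number of reads and not the number of molecules.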

Additional observations from a re-analysis of the deposited data

Results flagged for a closer look

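In 12 of 98 groups of 4 mice (12.2%) the highest or lowest mouse lay far from the other 3 by Dixon's criterion. Chance meets it in about 1 of 20 groups of independent, equally variable values. The 98 groups share the same mice, and knockout mouse 1 is a single oocyte. The 2 shares therefore cannot show whether the flags exceed chance. Floxed mouse 1 was the mouse apart in 6 of them: Usp11 at 62.4 CPM, Usp12 at 13.3 CPM, Usp26 at 8.41 CPM, Usp30 at 209 CPM, Usp39 at 181 CPM and Usp45 at 47 CPM. Knockout mouse 1, a single oocyte, was apart in 3: Usp11 at 112 CPM, Usp21 at 127 CPM and Usp53 at 94.9 CPM. The others were Usp24 in knockout mouse 4 (105 CPM), Usp38 in knockout mouse 2 (221 CPM) and Usp44 in floxed mouse 2 (0.694 CPM).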

How the results depend on the processing

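Against 6 higher and 5 lower members, leaving out each mouse in turn gave 2 to 7 higher and 3 to 14 lower. Leaving out mouse 1 of both genotypes gave 9 and 18. A fit on single oocytes with the mouse as a random effect gave 12 and 14. DESeq2 gave 8 and 6, and it called 5424 of the 15029 genes. For the other alternatives the share of all genes called is not given here. Upper-quartile scaling and no filter on low counts gave 5 and 5 each, thinned mouse sums 6 and 4, and equal weight per oocyte 7 and 5. With mouse number as a replicate block the counts were 9 and 8. The numbers were not taken as pairs, because deviations of same-numbered mice correlated at 0.316, -0.00378, 0.248 and 0.18; floxed mice 1 and 3 correlated best with their own number, mice 2 and 4 did not. No called member changed direction under any of the 16 alternatives. At 5 counts or more, the median number of members detected in a knockout oocyte was 48.0. The cause of these shifts was not tested. Knockout mouse 1 rests on 4332108 counts of a single oocyte, and members near 1 CPM, such as Usp18, Usp25 and Usp44, are limited by counting error.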
